A study of Saccharomyces cerevisiae with 18 samples.

Results

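The genes described here encode 53 assembly factors of the large (60S) ribosomal subunit of budding yeast, out of 6212 genes in the deposited table. They are a list of systematic gene names drawn up by function, and the rule that picks them uses no measured value. The list was, however, chosen with earlier results of these data known. Of the 53, 51 had at least 1 value and 36 had a value on all 18 arrays. HAS1 (YMR290C), which encodes a DEAD-box helicase, and NOP16 (YER002W), which encodes a nucleolar pre-60S factor, had no value on any array.

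Making a 60S subunit starts in the nucleolus, where a long precursor rRNA is transcribed, modified, folded and cut while assembly factors and ribosomal proteins join it in order. Helicases, GTPases and AAA-type ATPases then drive the remodelling steps that release these factors, the internal transcribed spacers are removed, and the particle is exported and finished in the cytoplasm. In yeast the genes for these factors belong to the ribosome biogenesis regulon, a set known for being transcribed together with growth and shut down together under many stresses.

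The study asked what a shortage of extracellular potassium does to transcripts of wild-type strain BY4741, a laboratory strain with deletions in nutrient marker genes that both channels of every array share. RNA of cells in a potassium-free medium (Translucent K-free, with about 15 µM potassium left) was set against RNA of the same strain in that medium with 50 mM KCl, after 10, 20, 40, 60 or 120 min in fresh medium. Cells had first grown to an absorbance of 0.6 (28 °C), and the labels give the potassium-free medium for this growth phase of the potassium-free arm too, although the design text speaks of a sudden shortage. There were 2 arrays at 10 min and 4 at each later time, from 1 experiment at 10 min and 2 independent experiments at the later times, each with a dye swap.

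Each value is a log2 ratio of the channels of an array, potassium-free over KCl, so that values below 0 mean a lower level in potassium-free medium and 0 means no difference. The log base is likely from the range of the values, and the direction is likely from the array titles. Neither is stated. The same mass of RNA, 8 µg, was labelled for each channel from an oligo(dT) primer, so a lower ratio means a smaller share of the labelled RNA, and a change in total RNA per cell cannot be told apart from it. Arrays 1 and 2 of a time point were taken as experiment A and arrays 3 and 4 as experiment B, which puts opposite dyes in each pair. The labels do not say which arrays belong together, and this pairing was kept with its higher correlation within pairs known (0.252, against -0.236 with arrays 1 and 3, and 2 and 4, paired). Splits into A and B hold for this pairing only. Tests used limma on the means of the experiments, with the adjustment over all genes tested at that time. Arrays held values for 3913 to 5372 genes, with array medians between -0.237 and 0.179, so a list's median is given beside that of all genes.

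The 60S assembly factors had medians slightly below the KCl level at 10 and 20 min, the latter from experiments of opposite sign. They stood further below it at 40 min, were lowest at 60 min in the values as deposited and lay part of the way back at 120 min. The median over the members tested at 10, 20, 40, 60 and 120 min was -0.14, -0.11, -1.11, -1.86 and -0.91. Over all genes tested the median was -0.0095, 0.01, 0.0085, -0.0887 and 0.0 at these times. The plot of every member on every array shows this as a column of blue that deepens to 60 min in nearly every functional group.

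**Figure D1:**
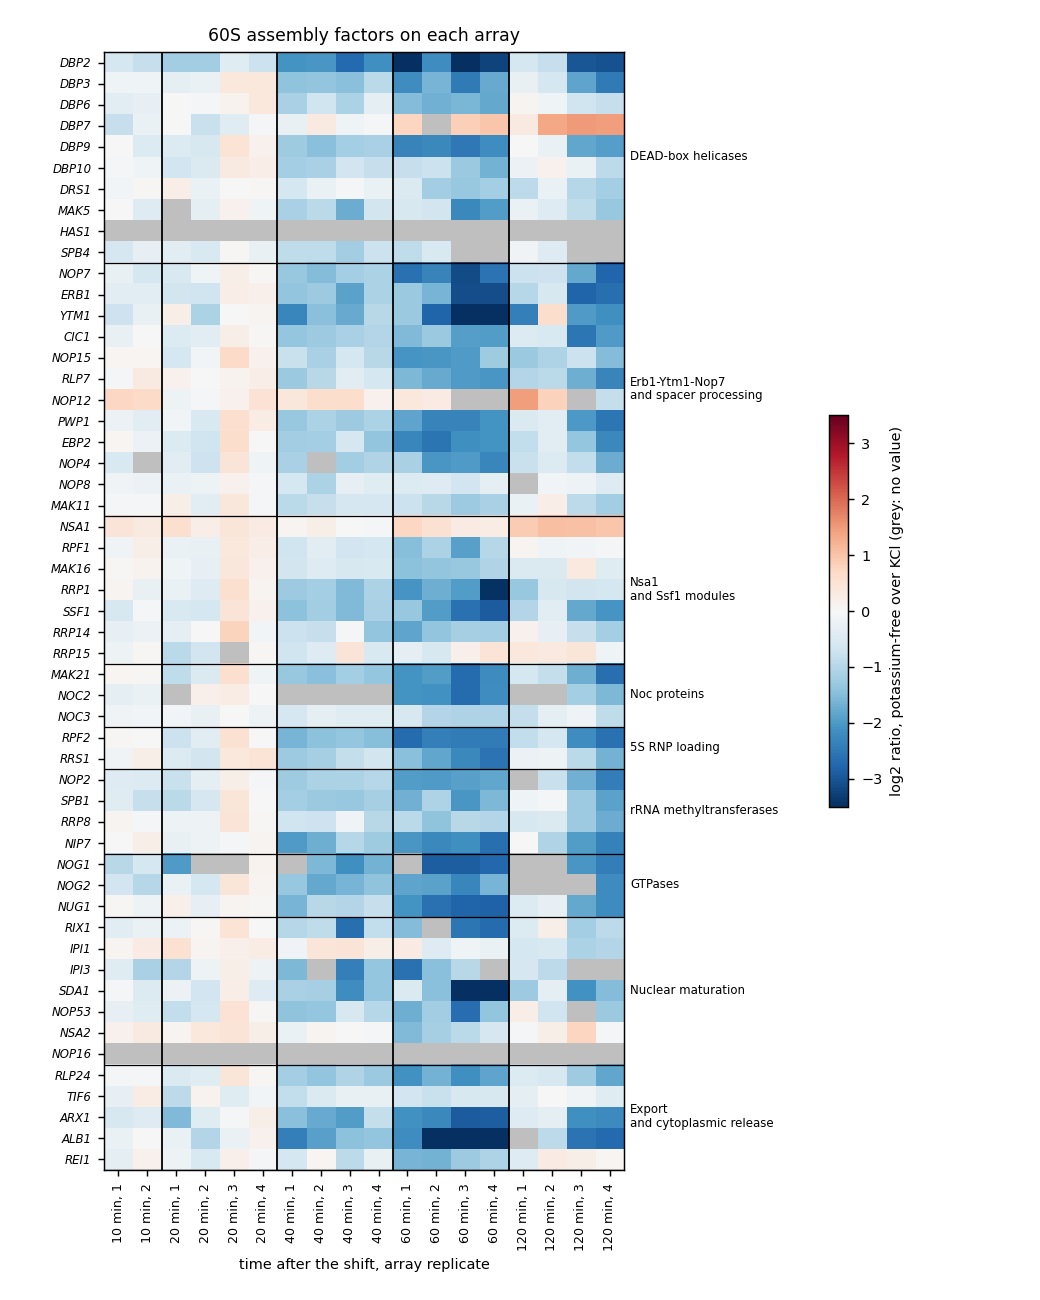
Log2 ratios (potassium-free over KCl) of the 53 factors (down the page, by functional group) on the 18 arrays (across, by time and array replicate). Blue is lower and red is higher in potassium-free medium, grey marks no value, and the colour scale ends at 3.5 on either side. Nearly all members are blue at 60 min, whereas DBP7 and NSA1 are red at 60 and 120 min.

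At 10 min none of 50 members tested passed the threshold of 0.05 on the adjusted p, against 0.0% of all genes lower and 0.0% higher. Of 4821 genes 135 had an unadjusted p under 0.05, and so did 2 members. Those were the GTPase genes NOG1 at -0.79 ± 0.26 (SE) and NOG2 at -0.83 ± 0.29, both with an adjusted p of 1.0 in limma. Of the 50 means 37 lay below 0, against 2469 of 4821 genes, and both arrays lay below 0 for 29 members (29.0% of all genes). No member's mean was at least 2-fold lower, against 0.913% of all genes. At this time a single experiment was available and its spread was borrowed from the later times.

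At 20 min again 0 of 50 members were called in limma, against 0.0229% of all genes lower and 0.459% higher. An unadjusted p under 0.05 was found for 272 of 4361 genes and for 1 member, NSA1 at 0.38 ± 0.16. With arrays scaled to the same median absolute value 2 members were lower. No member was at least 2-fold lower (0.734% of all genes), and 2 were below 0 on every array (13.8% of all genes). The 2 experiments had medians of opposite sign at this time. Over members it was -0.32 and -0.39 on the arrays of experiment A, but 0.27 and 0.05 on those of experiment B.

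At 40 min 9 of 50 members were lower and none was higher, against 3.7% of all genes lower and 5.23% higher. The 9 were DBP2, NOG1, IPI3, NOG2, NIP7, RRP1, RLP24, NOP4 and SPB4, with means from -2.26 (DBP2) to -0.94 (SPB4). All measured arrays lay below 0 for 43 members, against 22.7% of all genes, and 28 had a mean at least 2-fold lower, against 5.08% of all genes. An unadjusted p under 0.05 was found for 42 members, against 1331 of 4703 genes. For the alternative settings that follow, the share of all genes called is not given here. The number of members called was 41 with the other pairing of arrays, 37 with the 40 min arrays fitted alone and 0 without either 40 min experiment. It was 4 without either experiment of 20 min, 28 without either of 120 min, 5 without array 1 of 40 min or array 3 of 120 min and 15 without array 4 of 120 min.

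At 60 min 44 of 49 members were lower and 1 was higher, against 25.1% of all genes lower and 21.7% higher. The quartiles of the means were -2.27 and -1.30, and all measured arrays lay below 0 for 45 members, against 35.6% of all genes. A mean at least 2-fold lower was found for 42 members, against 16.0% of all genes. Without experiment A 41 members were lower, and without experiment B 31.

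At 120 min 24 of 46 members were lower and 2 were higher, against 22.0% of all genes lower and 20.4% higher. All measured arrays lay below 0 for 29 members, against 32.9% of all genes, and 21 were at least 2-fold lower, against 11.5%. The call rested on experiment B, since 0 members were lower without it and 30 were lower without experiment A. With arrays scaled to the same median absolute value 8 members were lower, with quantile normalization 9 and with the 120 min arrays fitted alone 1. The share of all genes called under these settings, or without an experiment, is not given here. The changes in count therefore cannot be set against those of all genes.

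**Figure D2:**
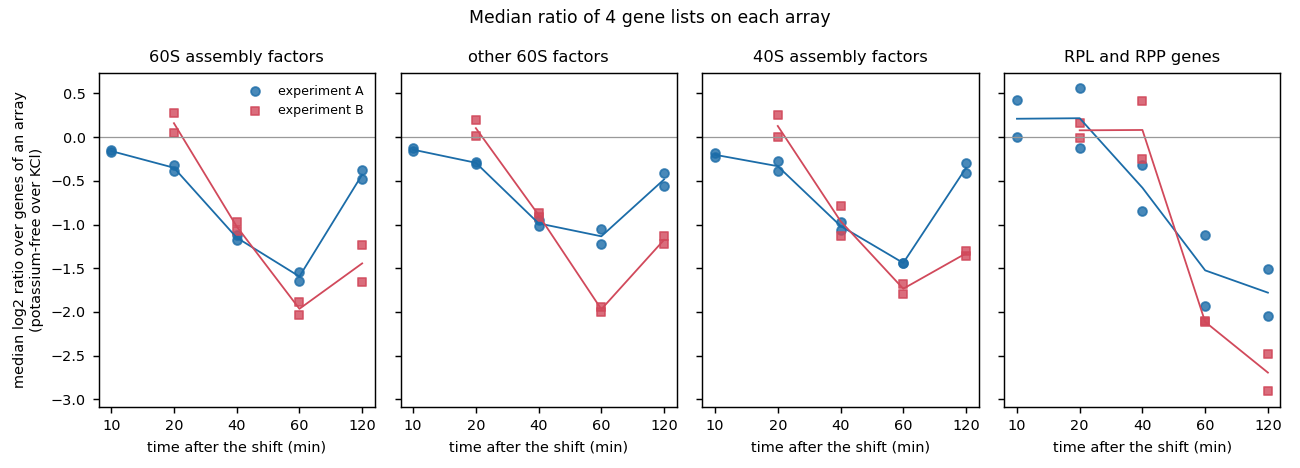
Median log2 ratio (potassium-free over KCl) on each array of the 53 60S assembly factors, 31 other 60S factors, 53 40S assembly factors and 78 genes of the large-subunit ribosomal proteins. Points are arrays, lines join the mean of an experiment's arrays, and times are evenly spaced. In the values as deposited the 3 lists of assembly factors are lowest at 60 min, and the ribosomal protein genes lie between -0.84 and 0.41 at 40 min and are lowest at 120 min.

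Among members tested at all 4 later times, 40 of 45 had their lowest mean at 60 min (88.9%), against 31.4% of 3714 genes. DBP7 and RRP15 were lowest at 20 min (30.5% of all genes), NOP8 and NSA1 at 40 min (8.94%) and IPI1 at 120 min (29.2%). The step between neighbouring times was itself tested and passed for no member or other gene in limma (0.0% lower and 0.0% higher of all genes at each step). The median change over members was -0.94 from 20 to 40 min, -0.78 from 40 to 60 min and 0.88 from 60 to 120 min. An unadjusted p under 0.05 was found for 15 of 49, 15 of 48 and 18 of 45 members at these steps. Over all genes it was found for 382 of 4237, 847 of 4010 and 792 of 3939. With the other pairing of arrays, whose correlation within pairs was -0.236, 19, 24 and 22 members passed. The share of all genes passing with it is not given here, so these counts cannot be read as a result about the members.

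That 60 min lies below 40 min depends on the scale of the arrays. The spread of all genes (SD) was 0.612 to 0.905 on the 40 min arrays and 1.06 to 1.30 on the 60 min arrays. With arrays scaled to the same median absolute value the median change over members from 40 to 60 min was -0.05, with 28 of 48 members below 0, and with quantile normalization it was -0.04. Ranked within an array, the members' median stood at percentiles 4.81, 4.01, 12.9 and 4.29 of all genes at 40 min and 3.99, 8.05, 7.56 and 7.87 at 60 min. The change from 60 to 120 min kept its sign under both scalings, with medians of 0.56 and 0.57.

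From 20 to 120 min 3 members fell and 1 rose, out of 46 tested, against 10.4% of all genes lower and 5.46% higher. RLP7 fell by 1.63 ± 0.39 on the log2 scale (SE, adjusted p = 0.0321 in limma), NOP15 by 1.19 ± 0.31 (adjusted p = 0.0429) and IPI1 by 1.09 ± 0.25 (adjusted p = 0.0294). DBP7, by contrast, rose by 1.47 ± 0.27 (adjusted p = 0.0174). None of the 4 passed when either experiment of 20 min was left out, or experiment B of 120 min, and 23 members passed without experiment A of 120 min.

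The DEAD-box RNA helicases unwind RNA to remodel the early particle. Of the 10 genes, 9 were tested at 40 min with a median of -0.95, and 8 at 60 min with a median of -1.50, where 7 were lower and 1 was higher. At 120 min 3 of 8 were lower (DBP2, DBP3 and DRS1) and DBP7 was higher, with a median of -0.78. Over all genes 25.1% were lower and 21.7% higher at 60 min, and 22.0% and 20.4% at 120 min. These shares stand beside the counts of every group below.

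DBP2 (YNL112W), whose helicase also works in mRNA assembly and decay, had the lowest mean of all members at 40 min. Its log2 ratios were -2.11, -2.05, -2.72 and -2.16 on the 40 min arrays, a mean of -2.26 ± 0.47 or 20.9% of the KCl level (adjusted p = 0.0327 in limma). At 60 min they were -4.12, -2.18, -3.47 and -3.25, a mean of 10.5% of the KCl level (adjusted p = 0.00168). All 8 arrays thus lay more than 4-fold below the KCl level. At 120 min DBP2 had -0.63 and -0.80 in experiment A but -3.01 and -3.04 in experiment B, so the experiments did not overlap, and its mean of -1.87 was the lowest of the members there (adjusted p = 0.0178).

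DBP6 (YNR038W), which acts in the earliest pre-60S particle, was the helicase gene nearest the group's median at 60 min. It had -1.53, -1.68, -1.61 and -1.80 at 60 min (mean -1.66 ± 0.21, adjusted p = 0.00119 in limma), 4 arrays within 0.3 of each other. On the 120 min arrays it had 0.09, -0.14, -0.70 and -0.81 and did not pass (adjusted p = 0.163), the arrays of experiment A standing near 0.

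DBP7 (YKR024C), whose helicase acts with snoRNAs in early 60S maturation, went the other way from its relatives. On the 3 arrays that measured it at 60 min it had 0.76, 0.85 and 0.98, a mean of 0.84 ± 0.19 or 179% of the KCl level (adjusted p = 0.00945 in limma). Its 120 min values were 0.32, 1.36, 1.48 and 1.47, with a mean of 1.16 ± 0.19 or 223% (adjusted p = 0.0037). Every array of both times lay above 0, and DBP7 was the only member higher at 60 min.

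Most other helicase genes were lower at 60 min, as DBP6 was. DBP3, DBP9, DBP10, DRS1 and MAK5 had means at 60 min from -2.32 (DBP9) to -1.06 (DRS1), all lower in limma with adjusted p-values from 0.00272 to 0.0151. SPB4 (YFL002C), a helicase gene needed for late nucleolar steps, was lower at 40 min at -0.94 ± 0.19 (adjusted p = 0.043) and had too few arrays to test later.

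The Erb1-Ytm1-Nop7 complex joins the precursor rRNA in the nucleolus and is pulled off by an AAA-type ATPase before the particle leaves it, while the other factors of this group help to fold the RNA and process its spacers. Of 12 such genes, 10 of 11 tested were lower at 60 min, with a median of -1.86, and 8 of 12 at 120 min, with a median of -1.29. At 40 min only NOP4 passed, against 3.7% of all genes lower. The measured arrays lay below 0 for 11 of the 12, against 22.7% of all genes, and the median was -1.11.

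YTM1 (YOR272W) encodes the subunit on which the ATPase pulls. At 60 min it had -1.29 and -2.81 in experiment A and -5.11 and -4.57 in experiment B, a mean of -3.44 ± 0.59 or 9.18% of the KCl level (adjusted p = 0.00304 in limma). All 4 arrays were below 0, but those of B lay more than 3-fold below those of A. At 120 min the dye-swapped arrays of experiment A gave -2.39 and 0.61, those of B gave -1.99 and -2.14, and the mean of -1.48 ± 0.59 did not pass (adjusted p = 0.0765).

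ERB1 (YMR049C), which encodes the scaffold of the complex, had -1.30 and -1.62 in experiment A and -3.10 and -3.11 in experiment B at 60 min (mean -2.28 ± 0.51, adjusted p = 0.00893 in limma). At 120 min it had -0.99 and -0.57 in A and -2.80 and -2.64 in B (mean -1.75 ± 0.51, adjusted p = 0.0301). At both times the experiments did not overlap, with B lower. NOP7 (YGR103W), the gene of the third subunit, had a mean of -2.66 ± 0.34 at 60 min, 15.8% of the KCl level, against 20.6% for ERB1 and 9.18% for YTM1.

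NOP4 (YPL043W), an RNA-binding factor of early folding, was the gene nearest the group's median at 60 min. It had -1.14, -1.21 and -1.07 on the 3 arrays that measured it at 40 min (mean -1.14 ± 0.25, adjusted p = 0.0374 in limma) and -1.13, -2.03, -1.99 and -2.29 at 60 min (mean -1.86 ± 0.25, adjusted p = 0.00137). At 120 min its arrays stood at -0.77, -0.49, -0.87 and -1.73, all below 0 (mean -0.97 ± 0.25, adjusted p = 0.0201).

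Among the factors at the internal spacers, CIC1, NOP15 and RLP7 had means of -1.68, -1.83 and -1.84 at 60 min and -1.38, -1.17 and -1.50 at 120 min, all lower in limma (adjusted p from 0.00109 to 0.0244). NOP15 was close in both experiments at 120 min, at -1.20 in A and -1.13 in B. PWP1 and EBP2, genes of early nucleolar factors, stood at -2.15 and -2.27 at 60 min, and MAK11, which also acts in early 60S steps, at -1.03, all lower. NOP8, whose protein joins the earliest particle with Dbp6, had -0.48 ± 0.18 at 60 min and did not pass (adjusted p = 0.0642).

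NOP12 (YOL041C), whose protein helps fold the 5.8S region of the precursor, did not move with the others. At 40 min it had 0.39, 0.62, 0.62 and 0.16, all above 0 (mean 0.45 ± 0.43, adjusted p = 0.528 in limma). At 60 min only the arrays of experiment A measured it, at 0.37 and 0.28, and it was not tested. Its 120 min values were 1.45 and 0.80 in A and -0.84 on the 1 array of B that measured it, so the experiments lay on opposite sides of 0.

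**Figure D3:**
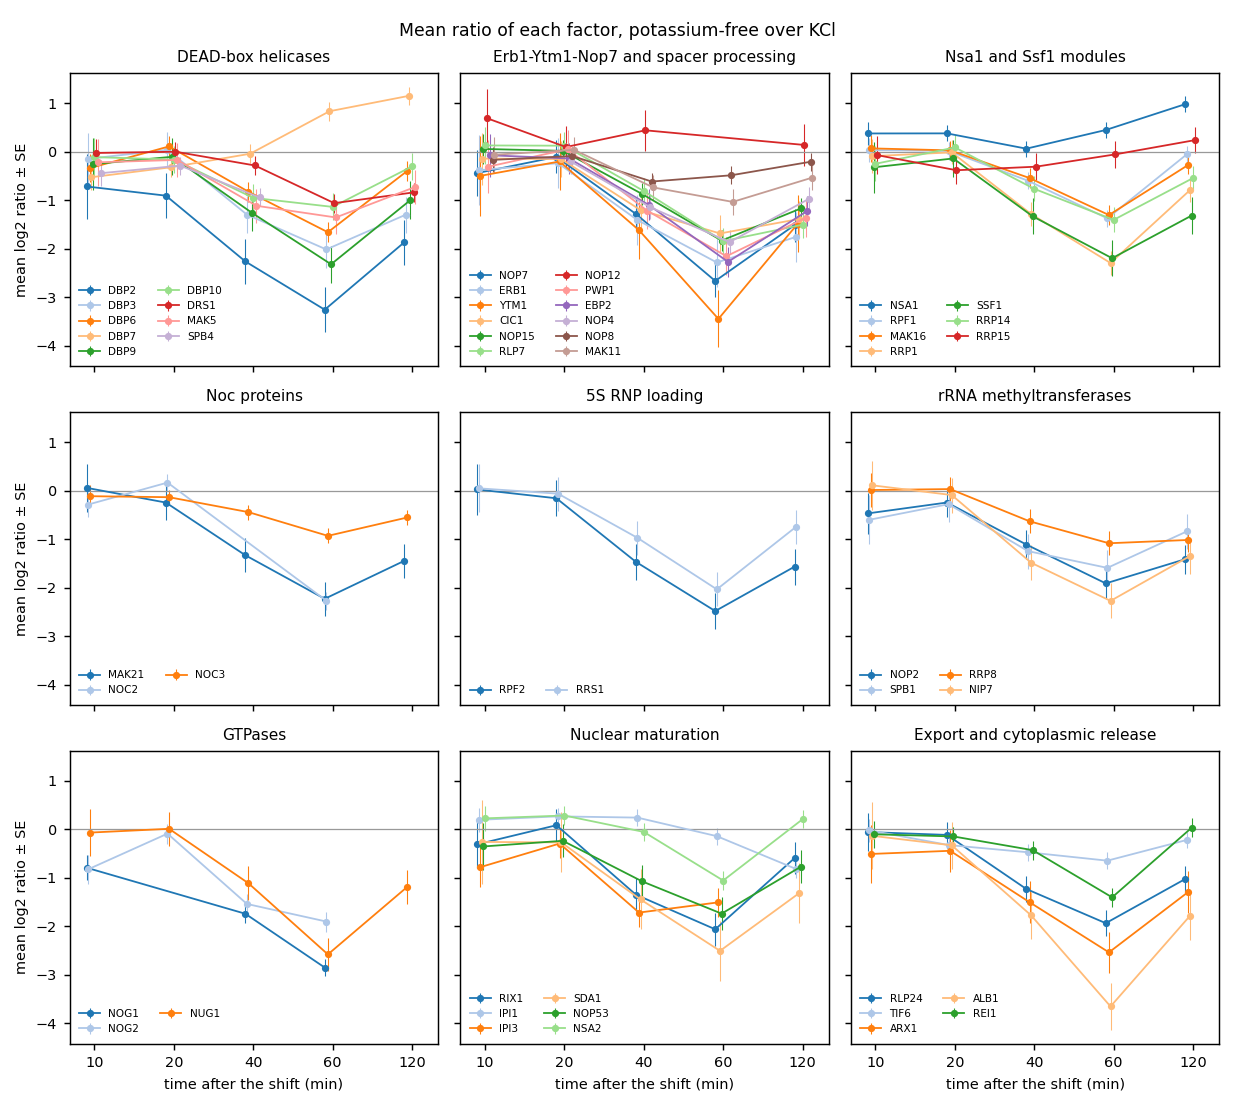
Mean log2 ratio (potassium-free over KCl) of each factor at the times where it was tested, by functional group. Points are means of the experiments, bars are the SE from the limma fit (n = 2 experiments, 1 at 10 min), and times are evenly spaced. Most curves reach their lowest point at 60 min, with DBP7, NSA1, RRP15 and IPI1 standing apart.

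The Nsa1 module (Nsa1, Rpf1, Mak16 and Rrp1) and the Ssf1 module (Ssf1, Rrp14 and Rrp15) hold together parts of the nucleolar particle and leave it before export. Their means at 60 min ran from -2.29 to 0.45, with NSA1 and RRP1, genes of the same module, at the ends. At that time 5 of 7 were lower, with a median of -1.37. At 120 min 2 of 7 were lower and 1 was higher, with a median of -0.27. These counts at 120 min are close to the 22.0% lower and 20.4% higher of all genes, so they are no result about the group.

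NSA1 (YGL111W) was near or above the KCl level at every time. At 60 min it had 0.73, 0.55, 0.29 and 0.25, a mean of 0.45 ± 0.16 that did not pass (adjusted p = 0.0546 in limma). By 120 min its values were 0.89, 1.06, 1.02 and 0.97, with a mean of 0.99 ± 0.16 or 198% of the KCl level (adjusted p = 0.00374). The 4 arrays at 120 min lay within 0.2 of each other, in both experiments and both dye orientations.

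RPF1 (YHR088W), the gene of a direct partner in that module, was nearest the group's median at 60 min. It had -1.49, -1.12, -1.89 and -0.99 at 60 min (mean -1.37 ± 0.18, adjusted p = 0.00126 in limma) and 0.10, -0.16, -0.10 and -0.05 at 120 min (mean -0.05 ± 0.18, adjusted p = 0.836). The arrays of the 2 times did not overlap, and at 120 min both experiments stood at the KCl level. The step from 60 to 120 min did not pass (adjusted p = 0.187 in limma).

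MAK16 had a mean of -1.30 ± 0.20 at 60 min (adjusted p = 0.00197 in limma) and -0.27 ± 0.20 at 120 min (adjusted p = 0.302). RRP1 was lower at 40, 60 and 120 min, at -1.28, -2.29 and -0.79. SSF1 had -2.19 ± 0.37 at 60 min and -1.31 ± 0.37 at 120 min, lower at both times, and RRP14 -1.40 ± 0.26 at 60 min, lower there only. RRP15 (YPR143W) stayed near 0 at 60 and 120 min, at -0.05 ± 0.27 and 0.24 ± 0.27 (adjusted p = 0.889 and 0.493), and its arrays at 60 min split by experiment into -0.31 and -0.56 in A and 0.18 and 0.48 in B.

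Of the Noc proteins, which form dimers that travel with the particle as it matures, MAK21 (YDR060W, also called Noc1) was nearest the group's median. It had -2.08, -1.95, -2.69 and -2.20 at 60 min (mean -2.23 ± 0.35, adjusted p = 0.00232 in limma) and -0.62, -0.84, -1.70 and -2.63 at 120 min (mean -1.45 ± 0.35, adjusted p = 0.0162). Its partner gene NOC2 had 4 close values at 60 min, from -2.68 to -2.10 (mean -2.27 ± 0.18, adjusted p = 0.000907), and no value at 40 min. NOC3 was at -0.93 ± 0.16 at 60 min and -0.55 ± 0.16 at 120 min, both lower in limma.

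Rpf2 and Rrs1 bring the 5S RNP, the 5S rRNA with its ribosomal proteins, into the particle. RPF2 (YKR081C) had -2.68, -2.39, -2.43 and -2.43 at 60 min, a mean of 17.9% of the KCl level (adjusted p = 0.00188 in limma), and these 4 arrays lay within 0.3 of each other. At 120 min it had -0.87 and -0.61 in experiment A and -2.17 and -2.62 in experiment B, again with no overlap (mean -1.57 ± 0.37, adjusted p = 0.0147). RRS1 had a mean of -2.04 ± 0.35 at 60 min (adjusted p = 0.0031) and -0.74 ± 0.35 at 120 min, where it did not pass (adjusted p = 0.12).

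The methyltransferases Nop2, Spb1 and Rrp8 place methyl groups on the rRNA of the large subunit, and Nip7 is a partner of Nop2. All 4 genes were lower at 60 min, with a median of -1.75, and NOP2, RRP8 and NIP7 were lower at 120 min. NOP2 (YNL061W) had -1.94, -1.996, -1.90 and -1.82 at 60 min (mean -1.91 ± 0.30, adjusted p = 0.00221 in limma), all within 0.2 of each other. On the 3 arrays that measured it at 120 min it had -0.78 in experiment A and -1.67 and -2.43 in B. NIP7 was lower at 40 min at -1.49 ± 0.36 (adjusted p = 0.0475), 60 min and 120 min.

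The GTPase genes were among the furthest below the KCl level at 60 min, with a median of -2.58 and 3 of 3 lower. NOG1 (YPL093W), whose GTPase enters the nucleolar particle and stays to the cytoplasm, had -1.58, -2.15 and -1.65 on 3 arrays at 40 min (mean -1.74 ± 0.18, adjusted p = 0.0114 in limma). At 60 min it had -2.89, -2.89 and -2.75, a mean of 13.9% of the KCl level (adjusted p = 0.000567). These values of both times lay close together within a time and did not overlap between times, but the step itself did not pass (adjusted p = 0.14 in limma). It was measured at 120 min only in experiment B, at -2.05 and -2.41.

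NUG1 (YER006W), whose GTPase acts before export, had -2.09, -2.60, -2.81 and -2.82 at 60 min (mean -2.58 ± 0.35, adjusted p = 0.00138 in limma). At 120 min it had -0.47 and -0.29 in experiment A and -1.80 and -2.19 in experiment B (mean -1.19 ± 0.35, adjusted p = 0.0303), with no overlap. NOG2, whose GTPase is a checkpoint before export, was lower at 40 min at -1.54 ± 0.21 and at 60 min at -1.90 ± 0.21. RefSeq places the snoRNA gene SNR191 within the NOG2 gene, and whether the probe reads it was not tested.

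In the nuclear maturation group, Rix1, Ipi1 and Ipi3 form the Rix1 complex, which prepares the particle for export. RIX1 and IPI3 were lower at 60 min, at -2.06 ± 0.34 and -1.51 ± 0.29 (adjusted p = 0.00267 and 0.00666 in limma), and IPI1 was not. IPI3 (YNL182C) had -1.58, -2.38 and -1.34 on 3 arrays at 40 min (adjusted p = 0.0246) and -2.63, -1.45 and -0.98 on 3 arrays at 60 min, all below 0 but spread over more than 3-fold.

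IPI1 (YHR085W) had -0.12, 0.42, 0.46 and 0.20 at 40 min and 0.27, -0.45, -0.16 and -0.23 at 60 min, on both sides of 0 at each time. By 120 min its values were -0.62 and -0.53 in experiment A and -1.10 and -1.04 in B, with a mean of -0.82 ± 0.18 or 56.6% of the KCl level (adjusted p = 0.0105 in limma). Of the 45 members measured in both experiments it was the only one for which both 120 min experiments lay below both 60 min experiments.

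SDA1, a gene for a late nuclear factor, had -0.98 in experiment A and -4.03 in experiment B at 60 min, the widest gap between experiments of the members measured in both (mean -2.51 ± 0.62, adjusted p = 0.0131 in limma). NOP53, whose protein recruits the exosome to the spacer, had -1.74 ± 0.34 at 60 min, and NSA2, a gene for another late nuclear factor, -1.06 ± 0.19, both lower. At 120 min NSA2 stood at 0.07 in A and 0.34 in B, and neither gene passed.

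The export and release group was lower in 5 of 5 genes at 60 min, with a median of -1.94. ALB1 (YJL122W), whose protein rides with the export factor Arx1 and is removed in the cytoplasm, had the lowest mean of all members at 60 min. It had -2.18 and -3.51 in experiment A and -4.72 and -4.22 in experiment B, a mean of 7.94% of the KCl level (adjusted p = 0.00136 in limma). At 40 min it had -2.40, -1.89, -1.42 and -1.39, all below 0, and did not pass (adjusted p = 0.0649). At 120 min it had -0.92 on 1 array of A and -2.58 and -2.73 in B (adjusted p = 0.0243). ARX1 itself had -2.54 ± 0.43 at 60 min and -1.29 ± 0.43 at 120 min, lower at both times.

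RLP24 (YLR009W) encodes the placeholder that the ribosomal protein encoded by RPL24A and RPL24B replaces in the cytoplasm, and it was nearest the group's median. It had -1.20, -1.39, -1.04 and -1.29 at 40 min (mean -1.23 ± 0.27, adjusted p = 0.0374 in limma) and -2.12, -1.65, -2.13 and -1.84 at 60 min (mean -1.94 ± 0.27, adjusted p = 0.00155). The arrays of the 2 times did not overlap, but the step itself did not pass (adjusted p = 0.32 in limma). TIF6, whose protein keeps the particle from joining a 40S subunit too early, had the mean nearest 0 in the group, -0.65 ± 0.17 at 60 min (adjusted p = 0.0177). REI1, which acts in removing Arx1, had -1.40 ± 0.20 at 60 min (adjusted p = 0.00159) and 0.03 ± 0.20 at 120 min. The dubious gene SLM6 overlaps REI1 in RefSeq, and the strand read by the probes is not given in the sources used here.

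**Figure D4:**
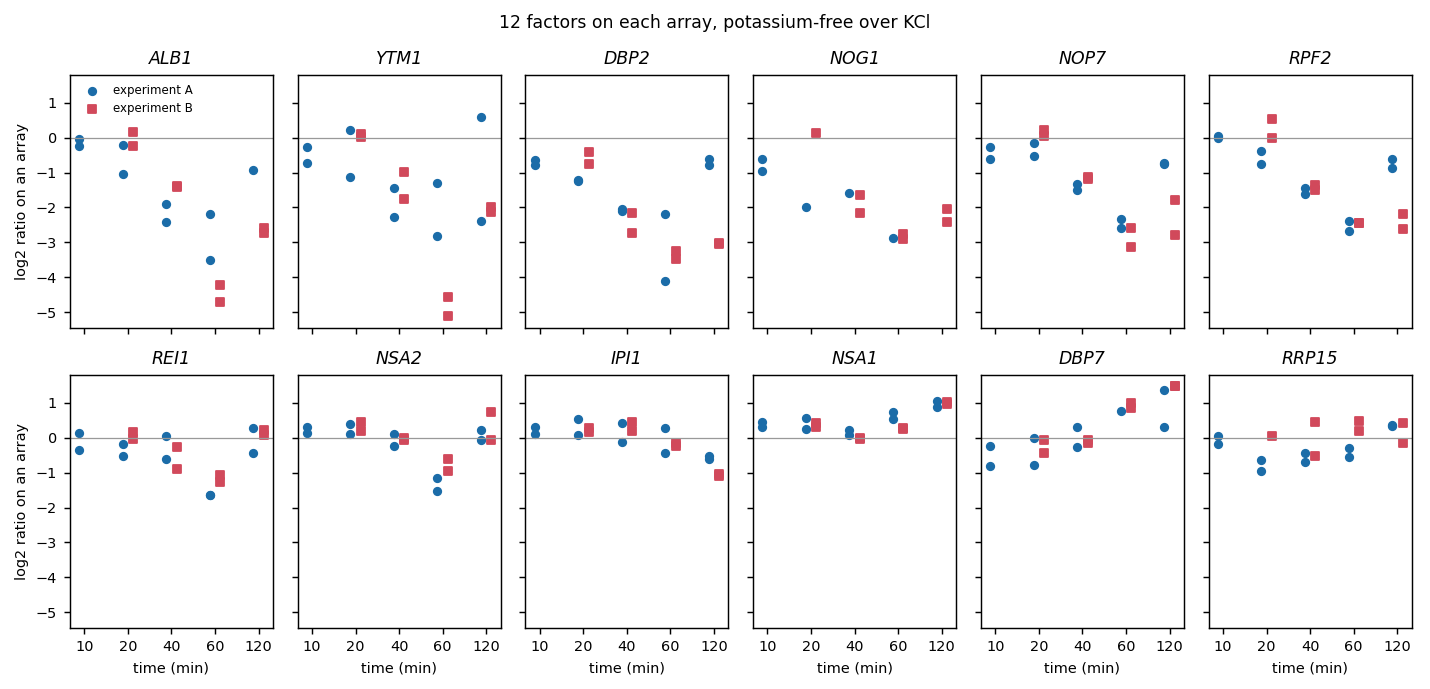
Log2 ratio (potassium-free over KCl) on each array for 12 factors, by time (evenly spaced). Circles are arrays of experiment A and squares are arrays of experiment B. The upper 6 factors lie far below 0 at 60 min and split by experiment at 120 min where both were measured, except that the A arrays of YTM1 lie on either side of B. REI1 and NSA2 are back near 0 at 120 min, IPI1 is below 0 on every array only there, and NSA1 and DBP7 are above 0.

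Experiments A and B differed in the same direction for most members at 20 min and at 120 min. At 20 min both arrays of A lay below both arrays of B for 32 of the 47 members on all 4 arrays and the opposite held for none, against 18.1% and 16.3% of all genes. The member medians were -0.39 in A and 0.21 in B. At 120 min both arrays of A lay below both of B for 2 of 41 members and both arrays of B below both of A for 29, against 26.7% and 25.7% of all genes.

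The members' median ratio at 120 min was -0.50 in A and -1.30 in B, a median difference of 1.01, and the arrays within an experiment differed by a median of 0.255 in A and 0.439 in B. Since the pairing was kept with its higher correlation within pairs known, the smaller gaps within pairs are no independent result. In A 1 of 41 members was at least 2-fold lower, against 327 of 3728 genes. In B 29 of 41 were, against 595 of 3728 genes. Ranked within an array, the members' median stood at percentiles 33.5 and 23.4 in A and 12.8 and 8.26 in B. The spread of all genes was also narrower in A, with SDs of 0.925 and 0.839 on its arrays and 1.27 and 1.45 on those of B, and its part in the gap was not tested.

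At 40 and 60 min the experiments were closer. At 40 min both arrays of A lay below both of B for 14 of 47 members and the opposite held for 3, against 15.4% and 21.5% of all genes, with a median difference of -0.13. At 60 min it was 9 of 45 members and 17 for the opposite, against 26.4% and 21.4%, with a median difference of 0.30. The widest single gaps at 60 min were those of SDA1 and YTM1, with B lower in both.

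**Figure D5:**
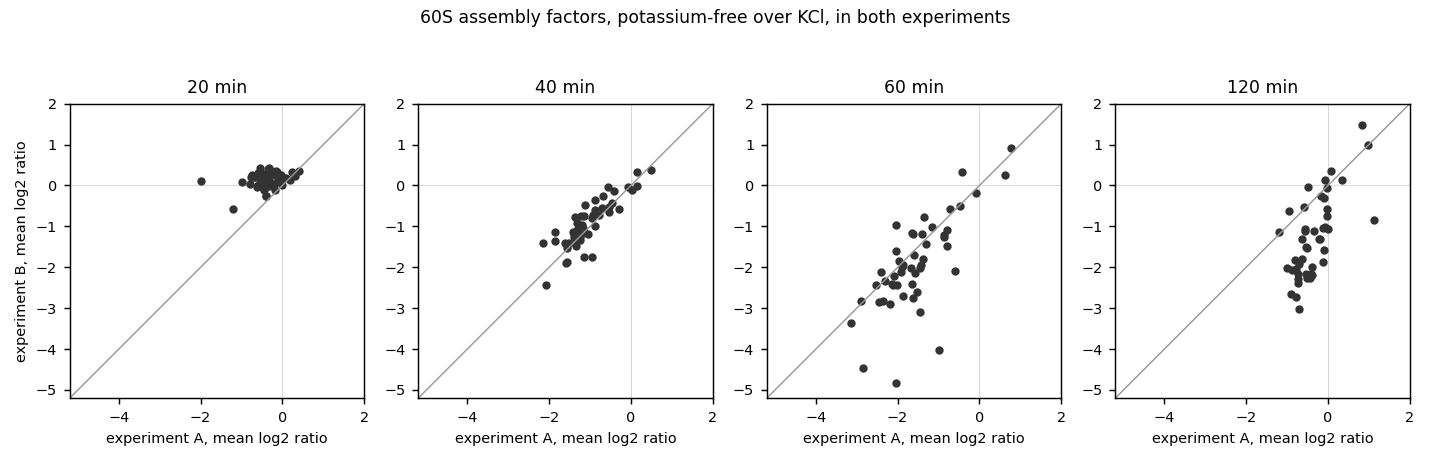
Mean log2 ratio (potassium-free over KCl) of each factor in experiment A (across) and experiment B (up), at 4 times, with the diagonal where both are equal. Points are members with values in both experiments. Most lie above the diagonal at 20 min, near it at 40 min, on either side of it at 60 min and below it at 120 min.

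The labels do not link the experiments of one time with those of another. Both 120 min experiments lay above both 60 min experiments for 25 of 45 members (55.6%) and below both for 1, IPI1, against 22.5% and 26.2% of all genes. Taken by letter, the 120 min value lay above the 60 min value in 44 of 45 members in A and in 38 of 45 in B, against 45.8% and 50.8% of all genes, with a median change of 1.19 in A and 0.48 in B. Those that stood within 0.5 of 0 in both experiments at 120 min after passing as lower at 60 min included RPF1, NSA2, REI1 and TIF6, whereas RPF2 was at -2.43 and -2.40 in B at 60 and 120 min and CIC1 at -1.93 and -2.26.

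The products of the ribosomal protein genes are what these factors assemble. Of the RPL and RPP genes 0 of 76 were lower in limma at 40 min, 72 of 72 at 60 min and 69 of 70 at 120 min, with medians of -0.24, -1.85 and -2.21. The median change from 60 to 120 min was 0.88 for the assembly factors and -0.41 for the RPL and RPP genes. No gene of either list passed the test of that step in limma. The unadjusted p was under 0.05 for 18 assembly factors and 0 RPL or RPP genes, against 792 of 3939 genes in all. The difference between the lists was not tested. At 40 min the assembly factors' median lay below the RPL and RPP median on each of the 4 arrays, the nearest being -1.18 against -0.84. On the 120 min arrays it lay above on each of the 4, the nearest being -0.38 against -1.51.

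RLP24 and RLP7 encode proteins that resemble ribosomal proteins. RLP24 stood at -1.23 ± 0.27 at 40 min, against -0.19 ± 0.24 for RPL24A and -0.01 ± 0.28 for RPL24B, and neither RPL24 gene passed (adjusted p = 0.637 and 0.99 in limma). At 120 min RLP24 stood at -1.03, against -1.94 for RPL24A and -2.30 for RPL24B. RLP7 had -0.81 ± 0.27 at 40 min, against -0.37 for RPL7A and -0.51 for RPL7B, and none of these 3 passed. The difference between relatives was not tested.

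REI1 and its relative REH1, whose product acts at a similar cytoplasmic step, stood on opposite sides of 0 at 60 min. REI1 was at -1.40 ± 0.20, whereas REH1 was at 1.11 ± 0.16 and was higher (adjusted p = 0.00182 in limma), with REH1 arrays from 0.885 to 1.545. At 120 min REH1 was at 0.72 ± 0.16 (adjusted p = 0.0124) and REI1 at 0.03. SSF1 and its near-identical copy SSF2 were close at 40 min, at -1.33 ± 0.37 and -1.12 ± 0.30, and probes for such copies may read both genes.

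Of 31 further genes of 60S assembly, not among the 53, 6 of 28 were lower at 40 min, 19 of 23 at 60 min and 11 of 24 at 120 min, with medians of -0.85, -1.53 and -0.88. The 53 assembly factors of the small subunit had 15 of 50 lower and 1 higher at 40 min, 40 of 49 lower and 1 higher at 60 min and 22 of 46 lower and 2 higher at 120 min. Their medians were -0.95, -1.46 and -0.81. They also split by experiment at 120 min, with array medians of -0.29 and -0.41 in A and -1.30 and -1.36 in B. The difference between 60S and 40S factors was not tested.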

How the data were processed

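Total RNA of BY4741 was hybridised on 18 arrays with a dye per channel. The deposited table holds 1 log2 ratio per gene and array. Per the labels, the authors left out spots with a diameter below 120 µm or an intensity below 100; how the background was corrected and the arrays normalized is not given in the sources used here. On 1 array at 10 min the labels give the same dye for both channels, and its title was followed. The members and lists were chosen with earlier results of these data known. All 53 IDs matched a RefSeq R64 locus tag.

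A time point of a gene was used with 3 or 4 arrays of 4, or with both arrays of 10 min. Dye-swap pairs were averaged to 9 experiment values, and limma 3.58.1 (R 4.3.3) tested the mean of each time point against 0 and differences between times. All genes were fitted with a spread shared by all times (4 residual degrees of freedom, 3.49 from the prior). Tests were two-sided, with Benjamini-Hochberg adjustment over all genes tested and a threshold of 0.05; p-values measure the spread between 2 experiments. The pairing of arrays into experiments followed their numbers and was kept with the consensus correlation within pairs (0.252, against -0.236 for the other pairing with opposite dyes) already known. For arrays, their number limits the precision.

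On simulated data for 60 min (4127 genes), 68% of 100 genes changed by 1 on the log2 scale and 99% of 100 changed by 2 were recovered, with 13 false calls. The simulation gave both arrays of a pair the same error, kept a gene's spread the same at all times and left all other genes unchanged. The data differ in these points, so the rates need not carry over. Values on every array are given for the 4 lowest and 2 highest members at 40, 60 and 120 min, the largest changes between neighbouring times and the member nearest each group's median at 60 min; other members, among them RRP15, NOC2, SDA1, NSA2 and REI1, were named by role. Alternatives were other pairings, replicate units, dye, block, centring, scaling, filters, prior, each array or experiment left out, and, added after seeing the data, each time fitted alone. Promoter motifs and sequences were not analysed here.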

Additional observations from a re-analysis of the deposited data

Results flagged for a closer look

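Among 59 groups of 4 arrays examined in the 18 factors described array by array, 5 held a value far from the other 3, by Dixon's criterion, which chance meets in about 1 group in 20. DBP2 had -2.72 on replicate 3 at 40 min, against -2.16 to -2.05 on the others. RPF2 had -2.68 on replicate 1 at 60 min, against -2.43 to -2.39. For YTM1 the value of replicate 2 was -1.12 at 20 min, against 0.026 to 0.21, and 0.605 at 120 min, against -2.38 to -1.99. DBP7 had 0.316 on replicate 1 at 120 min, against 1.36 to 1.48.

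The change from 20 to 120 min passed the test of the difference for 4 factors: it was -1.087 for IPI1, -1.629 for RLP7, -1.188 for NOP15 and 1.474 for DBP7. That is 3 of 46 lower and 1 higher, against 10.4% and 5.46% of all genes, and none of the 4 passed without either experiment of 20 min or without experiment B of 120 min.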

How the results depend on the processing

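The members' median kept its sign at 40, 60 and 120 min under all alternatives run. At 40 min 9 members were lower, and 41 under the other pairing, 42 with single arrays as replicates, 39 with the experiment added as a random block, 42 with a dye term, 31 with arrays scaled to the same median absolute value, 32 with quantile normalization, 15 with values required on all arrays and 37 with 40 min fitted alone. At 120 min 24 were lower, and 8 with scaled arrays, 9 with quantile normalization and 1 with 120 min fitted alone. At 20 min scaling and quantile normalization each gave 2. The median was -1.28 at 40 min with quantile normalization, -1.16 and -1.28 at 60 min with scaling and quantile normalization, and -0.241 and -0.266 at 10 min. Under the other pairing, single arrays as replicates, the random block and the dye term, members changed from 20 to 40 min numbered 19, 7, 1 and 4, from 40 to 60 min 24, 17, 8 and 16, from 60 to 120 min 22, 17, 9 and 14, and from 20 to 120 min 27, 21, 21 and 21. The share of all genes called under these alternatives is not given here, and the cause of these shifts was not tested.

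The numbers were not taken to pair experiments across times: deviations correlated at 0.4178 for 60 with 120 min and 0.2114 for 20 with 40 min, but from -0.1672 to -0.03847 for the other 4 pairs of times. With a replicate block the 10 min median was -0.25, 22 members were lower at 120 min, and the counts at 40 and 60 min stayed at 9 and 44.

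Leaving out each array or experiment in turn, the number lower was 0 throughout for 10 and 20 min, and its range was 0 to 28 (40 min), 31 to 45 (60 min) and 0 to 30 (120 min); the median ran, in order of time, from -0.171 to -0.136, -0.391 to 0.205, -1.16 to -1.02, -2.02 to -1.62 and -1.45 to -0.448. Changes between neighbouring times stayed at 0, and those from 20 to 120 min ran from 0 to 23 (0 without either experiment of 20 min or B of 120 min, 2 without either of 40 min, replicate 4 of 40 min or replicate 2 of 60 min, 23 without A of 120 min). At 40 min the count was 0 without experiment A or B of that time, 4 without either of 20 min, 28 without either of 120 min, 5 without replicate 1 of 40 min or 3 of 120 min and 15 without replicate 4 of 120 min. Of 2259 comparisons of single members with an array or experiment left out, 140 were no longer past the threshold and 0 reversed; of 995 others, 83 and 0.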
